A study of Homo sapiens with 64 samples.

Results

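The 36 genes described here build and maintain the primary cilium. They were chosen by name from 4 groups of the ciliary machinery, and all 36 were found by Ensembl identifier among the 54127 genes of the count tables. The rule names genes and uses no measured value, but the genes were chosen with earlier results of these data known. The groups were 12 genes of the transition zone, 13 of intraflagellar transport (IFT), 6 of the BBSome, and 5 coding for ciliary motors and Hedgehog regulators. RNA was sequenced from 64 samples of colorectal cancer cells. Of these, 48 came from spheroids of 6 lines established from colorectal tumors, RKO, DLD1, HT55, HCT15, SW48 and SW948. All 48 had been labeled with CFSE, a cell-permeable dye that is diluted at each division, and were sorted on day 6 of non-adherent culture into label-retaining cells (LRCs), called dormant in the labels, and non-LRCs, called cycling. Each of the 12 line and population groups had 4 replicates. The other 16 samples were unsorted DLD1 cells with or without CFSE (the latter labeled DMSO), 4 per group, taken on day 1 and on a later day that the sample labels give as day 5 and the series design as day 6. All spheroids grew in medium with bFGF and EGF. Each line is a single model of a tumor. The methods of the study describe the replicates as biological, the labels give them only a number, and neither says whether they were separate cultures, so p-values measure the spread between these samples.

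The primary cilium is a solitary, non-motile protrusion of the cell membrane around a microtubule core. It grows from the mother centriole, mainly in cells outside division, and is taken down again as they re-enter the cycle. At its base, the transition zone forms a gate that controls which proteins enter. Within it, IFT complex B carries cargo toward the tip with kinesin-2, IFT complex A returns with cytoplasmic dynein-2, and the BBSome moves membrane receptors out of the cilium. In vertebrates the Hedgehog pathway signals through this compartment. The measurements here are of RNA in whole samples, not of cilia.

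Levels are given as CPM, the share of a library's counts on the usual per-million scale after TMM normalization. The total count on genes ran from 12237225 to 20913455 per sample. The epithelial genes CDH1 (E-cadherin), EPCAM, KRT8 and KRT18 were lower in every RKO sample than in any other, with CDH1 at 0.624 to 1.39 CPM in RKO and at least 435 elsewhere, and KRT18 at 112 to 167 CPM in RKO and at least 537 elsewhere. KRT20, CDX1 and LGALS4, which mark differentiated gut epithelium, were each at 0 CPM in 1 or more samples outside RKO. Of 6 leukocyte genes, CD3E was at 0 in all 64 samples and PTPRC in 51 (up to 22.3 CPM in SW48), while LYZ reached 1651 CPM in SW948 and CD68 stood at 1000 to 1616 CPM in RKO. The summed level of the 6 was highest in SW948, at up to 1718 CPM. Fewer cells with a transcript and less RNA per cell cannot be told apart in such samples. Several libraries stood apart. The library labelled unlabeled DLD1 day 1 replicate 4 correlated better on average with the unlabeled day 5 libraries (mean r across genes 0.986) than with its own group (0.962). A smaller gap of the same kind was found for HT55 non-LRC 2, SW948 LRC 4, HCT15 non-LRC 2, HCT15 LRC 4 and CFSE-labeled DLD1 day 1 replicate 4. For tests within 1 line and in the controls, counts were also taken without each library. The fits across lines below left out whole replicate numbers, not single libraries, and fits blocked by replicate number left out none. Of 20 genes of DNA replication and mitosis tested, 18 were called lower in LRCs of RKO (median log2 fold change -0.70) and 17 in DLD1 (-0.56). In SW48 none was called, but all 20 log2 fold changes were negative, with a median of -0.49 and 6 at an unadjusted p under 0.05. None was called in HT55, SW948 and HCT15 either, with medians of 0.05, -0.04 and 0.18. Their part in the results for cilium genes was not tested.

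Many cilium genes carry an X-box in their promoter, the site at which RFX transcription factors bind as pairs. Promoter windows from 250 bases before to 50 bases after annotated start sites were taken from RefSeq (GRCh38.p14) for 33 of the 36 genes. An X-box, searched on both strands as 2 inverted 6-base arms with at most 3 bases between them, was found in 6 of 39 windows (15.4%), compared with 459 of all 35116 windows (1.31%). The shorter sequence GTTGCC, which is 1 form of an arm and overlaps the X-box, was found in 16 of the 39 windows (41%), compared with 12.2% of all windows. The 6 windows with an X-box are shown because 4 of their genes, B9D1, B9D2, IFT57 and IFT122, fell in LRCs in the test across lines below and the other two, TCTN1 and TCTN3, changed differently between lines. Each run has 100 bases on the strand of the gene, and capitals mark the X-box. B9D1 had 2 windows, and the one at chr17:19362674-19362973 held neither an X-box nor GTTGCC. In its other window (run shown: chr17:19378052-19378151, minus strand) the X-box began 193 bases before the start site. In B9D2 (chr19:41364130-41364229, minus strand), IFT57 (chr3:108222405-108222504, minus strand) and IFT122 (chr3:129440144-129440243, plus strand) it began 3 to 12 bases before the start site and ran across it. In TCTN1 (chr12:110614049-110614148, plus strand) it began at the start site, and in TCTN3 (chr10:95694078-95694177, minus strand) 215 bases before it.
B9D1: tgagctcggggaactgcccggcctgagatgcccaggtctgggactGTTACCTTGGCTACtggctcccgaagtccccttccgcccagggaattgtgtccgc
B9D2: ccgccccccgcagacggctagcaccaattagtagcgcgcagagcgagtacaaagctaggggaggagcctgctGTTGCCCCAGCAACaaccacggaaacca
IFT57: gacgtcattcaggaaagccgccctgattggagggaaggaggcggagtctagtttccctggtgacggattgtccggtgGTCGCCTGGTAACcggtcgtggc
IFT122: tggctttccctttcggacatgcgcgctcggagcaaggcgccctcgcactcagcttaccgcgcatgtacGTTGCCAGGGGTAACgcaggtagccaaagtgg
TCTN1: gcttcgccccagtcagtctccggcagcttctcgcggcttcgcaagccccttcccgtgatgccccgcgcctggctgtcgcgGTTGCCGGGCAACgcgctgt
TCTN3: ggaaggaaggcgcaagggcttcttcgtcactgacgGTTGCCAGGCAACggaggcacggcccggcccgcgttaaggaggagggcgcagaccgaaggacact
The spacers had 1 to 3 bases. Of the 8 genes with a window that fell across lines, 4 had an X-box, and of the other 25 it was 2. Among those 4, B9D2 lost the call in 8 of 15 alternative settings and IFT122 in 9 of 16. A match is a description of letters and no sign that a factor was bound.

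The level of nearly every cilium gene depended on the line. In non-LRCs, 34 of the 35 genes that passed the count filter differed between the 6 lines (edgeR quasi-likelihood test, Benjamini-Hochberg adjusted p under 0.05), with 98.3% of all genes tested doing the same. The exception was BBS1, a BBSome subunit, with 0.153 to 0.289 CPM per kilobase of transcript. Between the highest and the lowest line the median fold was 2.55 over the 34 genes detected in every line, and 27 of them reached 2-fold. HT55 was the lowest line for 16 genes, SW948 the highest for 11 and RKO for 8.

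**Figure D1:**
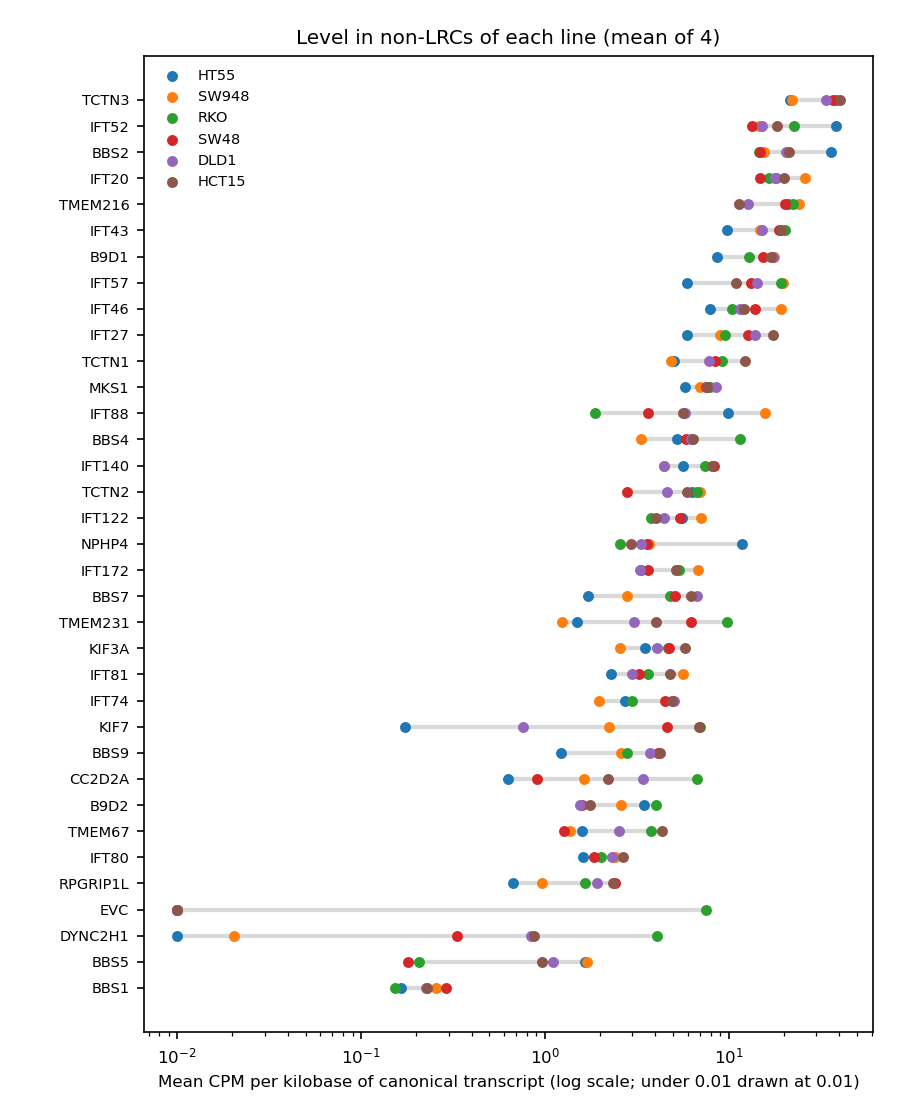
Mean level of each of 35 cilium genes in non-LRCs of the 6 lines (colored points, n = 4 per line), in CPM per kilobase of canonical transcript on a log axis, ordered by their mean over lines, with levels under 0.01 drawn at 0.01. TCTN3 lies at the top with 21.6 to 40.3 CPM per kilobase, whereas EVC stands at 7.49 in RKO and at the lower edge in the other lines.

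Per kilobase, the most abundant member on average over lines was TCTN3, a tectonic of the transition zone, with 32.3 CPM per kilobase. It ranged from 21.6 ± 0.87 (SD, n = 4) in HT55 to 40.3 ± 2.8 in HCT15. IFT52, a core subunit of complex B, had its peak in HT55 instead, at 38.6 ± 2.4 CPM per kilobase, and its lowest level in SW48, at 13.3 ± 2.4. BBS2, a BBSome subunit, was also highest in HT55, at 35.9 ± 5.0 CPM per kilobase, against 14.6 ± 1.2 in RKO. By fold between lines, DYNC2H1 and KIF7 had the widest ranges. DYNC2H1, the heavy chain of dynein-2, stood at 4.09 CPM per kilobase in RKO and 0.00415 in HT55. KIF7, a kinesin that organizes the ciliary tip and regulates GLI factors, stood at 7.01 in RKO, 6.86 in HCT15 and 0.175 in HT55. EVC, a ciliary scaffold that carries the Hedgehog signal with EVC2, was at 50.8, 54, 47.5 and 40.4 CPM in the 4 RKO non-LRC samples and at 0 in all 4 of HT55. EVC2 had 5 counts in all 64 samples and was not tested. IFT88, a complex B subunit needed for cilium assembly, showed the opposite order, with 1.88 CPM per kilobase in RKO and 15.8 in SW948.

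The comparison of LRCs with non-LRCs asks how cells that kept the dye differ from those that divided. Across the 6 lines, with line as a covariate, 9 of the 35 cilium genes tested fell in LRCs and none rose, while 10.7% of all 16603 genes tested were lower and 22.9% changed in either direction (edgeR). At an unadjusted p under 0.05 there were 12 of 35, a share near that of all genes (5722 of 16603), and DESeq2 called 9 lower and 1 higher. Of the 9, 5 belong to the transition zone (of 12 tested) and 4 to IFT (of 13), and no gene of the BBSome (6 tested) or of the motors and Hedgehog regulators (4 tested) passed the threshold. Differences were small. The median log2 fold change was -0.08 over the cilium genes and 0.01 over all genes tested, and 29 of 35 were negative.

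**Figure D2:**
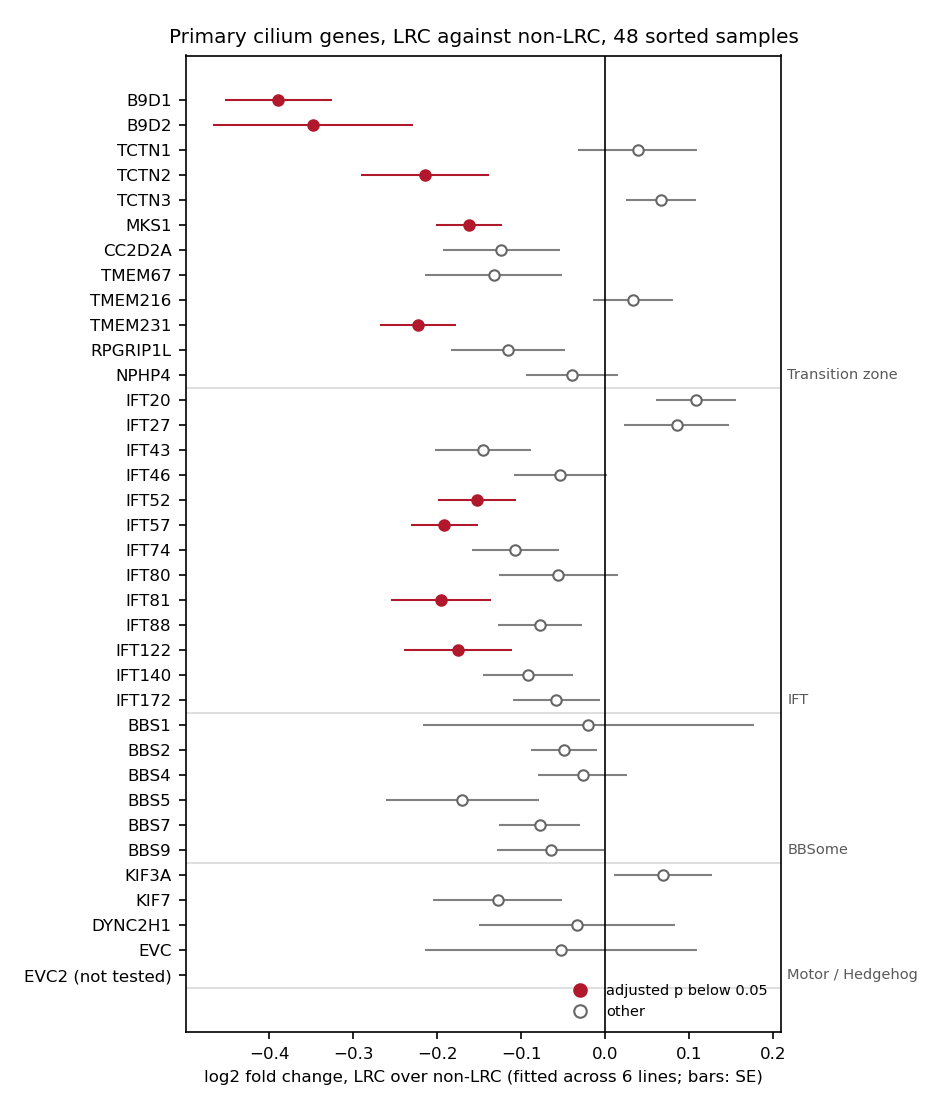
Log2 fold change of LRCs against non-LRCs across 6 lines for the 35 cilium genes tested (24 samples per population), with standard errors, by role. Filled red points passed an adjusted p of 0.05 and all 9 lie to the left of 0, from -0.39 for B9D1 to -0.15 for IFT52.

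B9D1, a B9-domain protein of the transition-zone gate (GRCh37, chr17:19237621-19281506, minus strand), had the largest fall. In SW948 it stood at 16.2, 16.6, 15.5 and 16.5 CPM in non-LRCs and at 13.4, 11.6, 9.8 and 14.1 CPM in LRCs. In DLD1 it stood at 16.9, 15.4, 15.5 and 15.8 CPM in non-LRCs and at 14.2, 13.3, 10.8 and 9.53 CPM in LRCs. All LRC samples were thus below all non-LRC samples in these lines. In RKO, non-LRCs had 10.9, 10.1, 14 and 11.9 CPM and LRCs 8.78, 7.71, 10.4 and 8.17 CPM. In SW48, non-LRCs had 9.66, 20, 12.2 and 14.3 CPM and LRCs 8.51, 12.3, 8.02 and 9.13 CPM. In both, the groups overlapped. In HCT15, non-LRCs had 14.6, 16.6, 17.3 and 13.7 CPM and LRCs 11.1, 11.9, 13.7 and 12 CPM. In HT55, non-LRCs had 6.6, 8.28, 9.27 and 7.44 CPM and LRCs 6.16, 7.16, 8.3 and 6.86 CPM. The groups overlapped in these lines as well, but the LRC sample was the lower of every same-numbered pair, 24 of 24 over the 6 lines. In SW948 and RKO same-numbered samples did not deviate together. For those lines, here and in the pair counts below, samples are matched by number alone. The log2 fold change across lines was -0.39 ± 0.063 (SE), with an adjusted p of 1.26e-05 by edgeR. Of the exon bases of B9D1, 29.4% overlap EPN2 or MAPK7 on the opposite strand, and whether reads were counted by strand is not given in the sources used here.

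TMEM231, a membrane protein of the same gate (GRCh37, chr16:75570639-75590187, minus strand), fell in LRCs by 0.22 ± 0.046 on the log2 scale (adjusted p = 0.000309) and in 19 of 24 pairs. In HCT15 its values were 18.6, 18.1, 16.4 and 15.1 CPM in non-LRCs and 12.6, 13.5, 13.7 and 14.1 CPM in LRCs. In DLD1 they were 12.3, 14.9, 12 and 12.6 CPM against 11.2, 10.3, 10.5 and 9.69 CPM in LRCs. The groups did not overlap in either line. RKO, the line with the most TMEM231, showed 42, 43.2, 41.1 and 40.1 CPM in non-LRCs and 43.9, 44.3, 43.7 and 38.9 CPM in LRCs, with 3 of 4 LRC samples at the top. MKS1, the Meckel syndrome protein that works with B9D1 and B9D2, fell by 0.16 ± 0.039 (adjusted p = 0.00186) and in 20 of 24 pairs. In HCT15 it stood at 17.1, 17.5, 18.2 and 18.5 CPM in non-LRCs and 14.5, 13.8, 15.5 and 15 CPM in LRCs, without overlap. B9D2, the partner of B9D1, fell by 0.35 ± 0.12 (adjusted p = 0.0288) from few reads, 1.45, 1.78, 1.96 and 1.09 CPM in DLD1 non-LRCs, for example. TCTN2, a tectonic, fell by 0.21 ± 0.076 (adjusted p = 0.035). The remaining tectonics, TCTN1 and TCTN3, had log2 fold changes of 0.04 and 0.07 that did not pass the test.

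Among the transport genes, IFT57, a peripheral subunit of complex B (GRCh37, chr3:107879659-107941282, minus strand), had LRC samples below all non-LRC samples in SW48, DLD1 and HCT15. In DLD1 it stood at 45, 44.1, 39.9 and 44.6 CPM in non-LRCs and 36.5, 37.9, 32.9 and 34.4 CPM in LRCs. In HCT15 it stood at 31.3, 32.7, 34.9 and 35.8 CPM in non-LRCs and 26.4, 27.3, 27.1 and 30.4 CPM in LRCs. In SW48 it stood at 38.2, 47.1, 39.2 and 37.1 CPM in non-LRCs and 31.1, 32.2, 29.8 and 36.4 CPM in LRCs. The groups overlapped in HT55, SW948 and RKO, and a difference between lines in the IFT57 change did not pass the interaction test (adjusted p = 0.219). Across lines IFT57 fell by 0.19 ± 0.04 on the log2 scale (edgeR, adjusted p = 0.000372). IFT52 fell by 0.15 ± 0.046 (adjusted p = 0.0133) and in 21 of 24 pairs. In SW48 it stood at 20.4, 29.6, 20.9 and 22.8 CPM in non-LRCs and 16.1, 19.9, 19.5 and 18.3 CPM in LRCs, without overlap. IFT81, the complex B subunit that binds tubulin as cargo, fell by 0.20 ± 0.06 (adjusted p = 0.014). IFT122, a core subunit of complex A, fell by 0.18 ± 0.064 (adjusted p = 0.0404) and in 17 of 24 pairs. Its LRC samples were all below the non-LRC samples in DLD1 but all above them in RKO. B9D1, TMEM231 and IFT57 passed the test under all 16 alternative settings tried. The others did not in all. MKS1 lost the threshold in 1 of 16 settings, IFT52 in 2, IFT81 in 4, TCTN2 in 7 and IFT122 in 9, and B9D2 in 8 of 15. The number of genes called was 4 without replicate 1 in every group, 8 without replicate 2, and 5 each without replicates 3 and 4. Leaving out RKO gave 10 lower genes (6.62% of all genes tested were then lower) and 1 higher gene, IFT20, a complex B subunit that also sits at the Golgi, with 0.16 ± 0.052 (adjusted p = 0.0328).

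**Figure D3:**
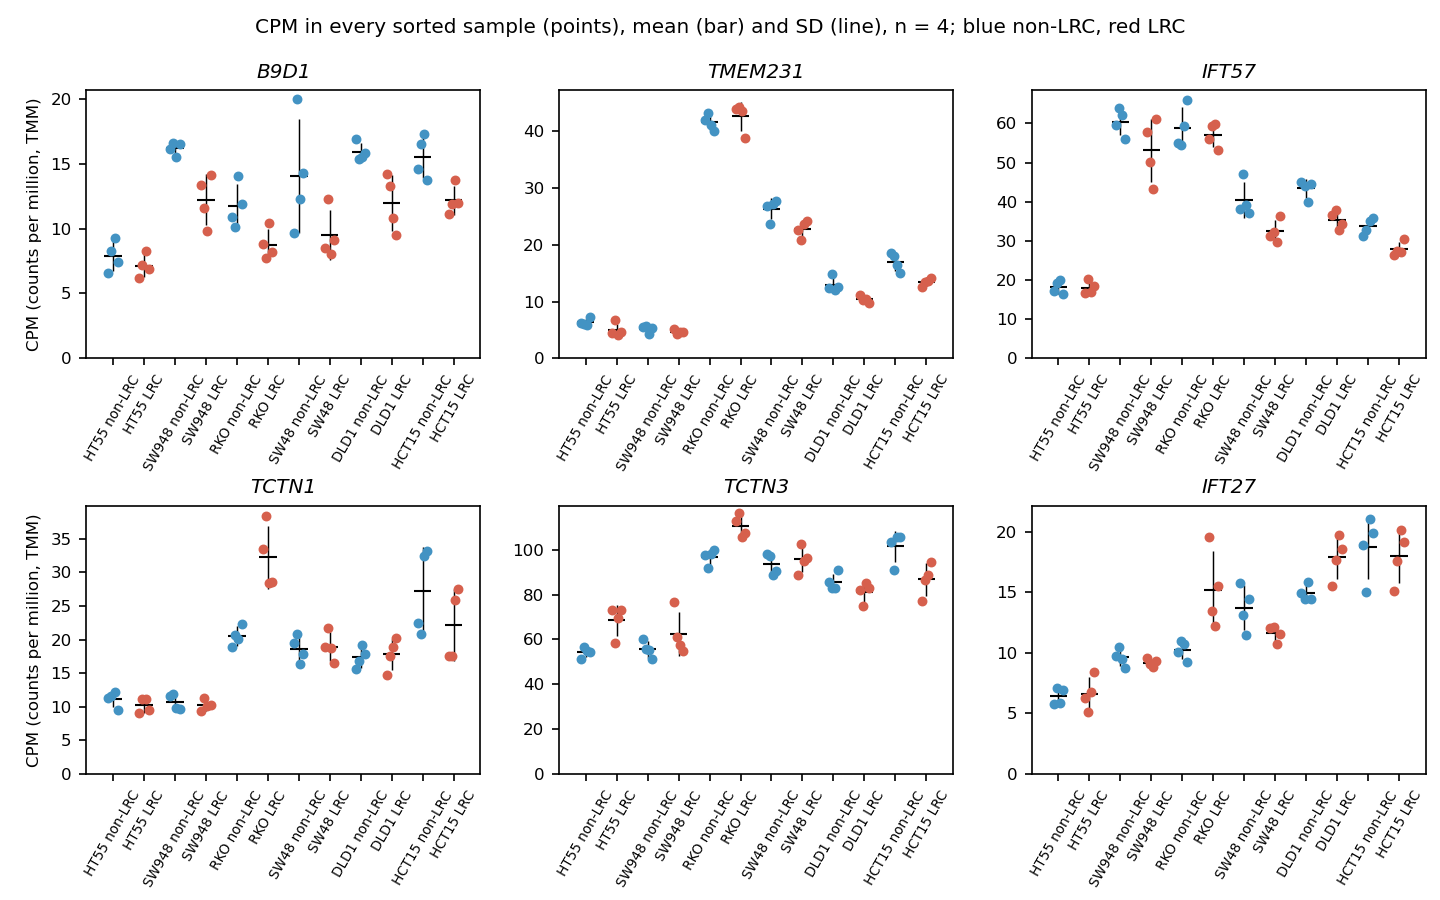
CPM of 6 cilium genes in every sorted sample, in blue for non-LRCs and red for LRCs, with horizontal bars for group means and vertical lines for SDs (n = 4). The B9D1 mean was lower in LRCs of all 6 lines, whereas TCTN1 was higher in RKO LRCs (28.5 to 38.4 CPM, against 18.9 to 22.3 CPM in non-LRCs) and overlapped between populations in the other lines.

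In RKO most of the cilium genes called were higher in LRCs. It was the line with the most changes of any kind, 41.5% of 12731 genes tested, 20.4% higher and 21% lower. Of its 33 cilium genes tested, 8 were higher and 2 lower in LRCs, with a median log2 fold change of 0.06 over the 33 against 0.01 over all genes. TCTN1, a tectonic (GRCh37, chr12:111051832-111101236, plus strand), stood at 18.9, 20.7, 20 and 22.3 CPM in non-LRCs and 33.4, 38.4, 28.5 and 28.6 CPM in LRCs, without overlap, a log2 fold change of 0.63 ± 0.11 (adjusted p = 0.000248). IFT27, a small GTPase of complex B needed for export by the BBSome, stood at 10.1, 11, 10.7 and 9.24 CPM in non-LRCs and 19.6, 13.4, 12.2 and 15.5 CPM in LRCs, a log2 fold change of 0.54 ± 0.14 (adjusted p = 0.00498). Every LRC sample was above every non-LRC sample for both genes. The other genes called in RKO are named after their values were seen. DYNC2H1 rose by 0.46 ± 0.12 (adjusted p = 0.00776), from 56, 75.3, 44.4 and 47.9 CPM to 67.8, 83.7, 82.1 and 78.7 CPM, with overlap through 1 sample. KIF3A, a kinesin-2 motor subunit, rose by 0.43 ± 0.12 (adjusted p = 0.00956). The transition-zone genes TMEM67, NPHP4 and CC2D2A and the BBSome subunit BBS9 rose by 0.22 to 0.38. B9D1 (-0.45 ± 0.14, adjusted p = 0.0138) and IFT43 of complex A (-0.31 ± 0.11, adjusted p = 0.0364) fell. RKO LRCs held a mitochondrial share of reads of 7.01% to 10.5%, against 4.47% to 6.57% in non-LRCs, and a summed level of the cell cycle genes of 1541 to 2501 CPM, against 3081 to 3330 CPM. All 6 motile-cilium markers tested in RKO were called higher (median log2 fold change 1.08). Their part in the result was not tested.

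**Figure D4:**
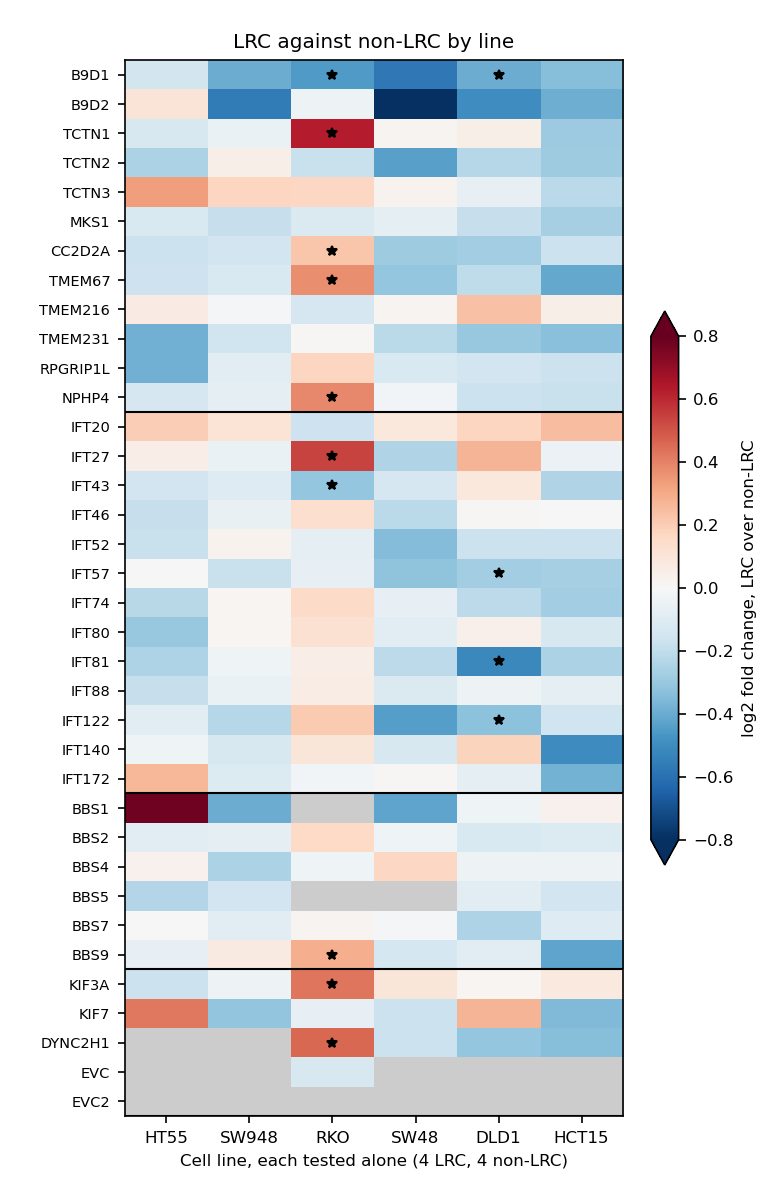
Log2 fold change of LRCs against non-LRCs in each line for the cilium genes, with black lines between the groups of genes, red for higher and blue for lower in LRCs (values past 0.8 drawn at the end of the scale), stars for genes called in a fit of that line alone, and gray for genes not tested. In RKO 10 genes were called, 8 of them higher, and in DLD1 4 genes, all lower.

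In DLD1, 4 of 34 cilium genes were called and all were lower, with 14.6% of all genes tested called and 7.89% lower. The median log2 fold change was -0.10 over the 34 and 0.02 over all genes. IFT57 fell by 0.28 ± 0.065 (adjusted p = 0.0165), IFT81 by 0.51 ± 0.14 (adjusted p = 0.0311), IFT122 by 0.33 ± 0.098 (adjusted p = 0.0447) and B9D1 by 0.40 ± 0.12 (adjusted p = 0.0476). IFT81 went from 10.2, 10.7, 8.95 and 7.47 CPM to 7.13, 6.4, 5.56 and 6.99 CPM, all LRC samples being the lower. With replicates blocked by their number, as the correlations of same-numbered samples call for in this line, 11 genes were called, 9 lower and 2 higher (33.8% of all genes tested). The added genes included TMEM231 (-0.30 ± 0.098, adjusted p = 0.0195) and, in the other direction, IFT27 (0.27 ± 0.084, adjusted p = 0.0161). Without the block the count was sensitive to single libraries, being 0 without non-LRC 1, 1 without non-LRC 3 or LRC 3, and 2 without non-LRC 2 or LRC 4. The summed level of cell cycle genes was 1499 to 2139 CPM in DLD1 LRCs, against 2486 to 2755 CPM in non-LRCs, and its part in the result was not tested.

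In HCT15 no gene passed the threshold in the fit without a block. Of its 34 genes tested, 29 had negative log2 fold changes, with a median of -0.20. Over all genes the median was -0.0021 and 49.6% were positive. At an unadjusted p under 0.05 there were 12 of 34, and 2415 of all 14017 genes. By adjusted p edgeR called 0.977% of all genes, and DESeq2 called 1 cilium gene. With the replicate block, 14 genes were called, all lower, when 10% of all genes tested were lower. IFT140, a complex A subunit, stood at 40.4, 39.6, 47.2 and 42.1 CPM in non-LRCs and 24.9, 22.7, 32.7 and 38.5 CPM in LRCs. All LRC samples were below all non-LRC samples, and the blocked log2 fold change was -0.53 ± 0.095 (adjusted p = 0.00092). IFT172, the complex B subunit at the tip turnaround, followed with -0.38 ± 0.08 (adjusted p = 0.00292), from 25.7, 24.2, 31.1 and 30.8 CPM to 18.6, 18.1, 22.9 and 26 CPM. TMEM67 fell by 0.40 ± 0.092 (adjusted p = 0.0053) and TCTN1 by 0.29 ± 0.078 (adjusted p = 0.0135), both higher in RKO LRCs. Without HCT15 LRC 4, a library closer to the non-LRCs, IFT140 was the 1 gene called in the fit with no block. In HCT15, 18 of the 20 cell cycle genes had positive log2 fold changes and none passed the test.

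The other lines gave few calls. In SW48, 0 of 33 genes were called by edgeR and 0 by DESeq2, and edgeR called 0.796% of all genes. An unadjusted p under 0.05 was seen for 5 of the 33 and for 1728 of all 13196 genes. With the replicate block 5 genes were lower (4.33% of all genes tested), among them B9D1 (-0.55 ± 0.12, adjusted p = 0.0163) and B9D2 (-1.11 ± 0.27, adjusted p = 0.0305). The mitochondrial share was 13.8% to 14.2% in SW48 LRCs and 9.66% to 11.3% in non-LRCs, and the 20 cell cycle genes had negative log2 fold changes (median -0.49) with none called. The part of either in the result was not tested. In HT55, 0 of 33 were called, as were 0% of all genes, with 4 at an unadjusted p under 0.05 (1005 of all 13391 genes) and 0 by DESeq2, and still 0 without HT55 non-LRC 2. These fits had no replicate block, though same-numbered samples deviated together in HT55. In SW948, 0 of 33 were called, again with 0% of all genes, 3 at an unadjusted p under 0.05 (2350 of all 13674 genes) and 0 by DESeq2. SW948 LRC 4, the library that correlated better with non-LRCs, bore on this. Without it 2 genes were lower, B9D1 (-0.47 ± 0.11, adjusted p = 0.0133) and IFT122 (-0.32 ± 0.095, adjusted p = 0.037), and 14.5% of all genes were called. In fits without a block, B9D1 was the 1 gene called in more than a single line, RKO and DLD1. The median log2 fold changes of the cilium genes were -0.13 in HT55, -0.08 in SW948 and -0.13 in SW48.

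Whether the LRC difference itself varied between lines was tested by an interaction of line and population. It did for 6 of 35 cilium genes, against 14.3% of all genes tested. With the replicate block, whose numbers pair the samples in 4 of the 6 lines, the count was 14. The share of all genes called with that block is not given, so the rise is not read as particular to cilium genes. The smallest adjusted p was for TCTN3 (0.00353), which lies at chr10:97419580-97453900 of GRCh37 on the minus strand. In HT55, TCTN3 stood at 51.4, 56.7, 54.9 and 54.4 CPM in non-LRCs and 73.3, 58.2, 69.4 and 72.9 CPM in LRCs, and in RKO at 97.8, 91.9, 97.9 and 100 CPM against 113, 116, 106 and 107 CPM. LRCs were higher in both lines without overlap. In HCT15 it stood at 103, 91.2, 106 and 106 CPM in non-LRCs and at 77.2, 86.5, 88.9 and 94.6 CPM in LRCs, lower apart from an overlap through non-LRC 2. Its log2 fold changes went from 0.33 in HT55 to -0.22 in HCT15. TCTN1 (adjusted p = 0.00983) had 0.63 in RKO and between -0.29 and 0.05 elsewhere. IFT27 (0.0153), IFT140 (0.0169), EVC (0.0409) and IFT172 (0.0478) also differed, and for EVC the test compares RKO with lines at 0 to 6 counts per group. B9D1 showed no detectable difference between lines (adjusted p = 0.73). Without RKO, a setting added after the data were seen, TCTN3 was the 1 gene left (adjusted p = 0.0406), and the number of genes was 0 without replicate 1, 5 without replicate 2, 1 without replicate 3 and 3 without replicate 4.

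Other genes of the cilium, listed by role, were compared in the same fit across lines, in which 10.7% of all genes were lower and 12.2% higher. Most of these lists gave shares near those, so their genes are given as values. Of 10 further IFT genes tested, 3 were lower, namely TTC26 (-0.23 ± 0.05, adjusted p = 0.000462), TTC30B (-0.25 ± 0.086, adjusted p = 0.0278) and TRAF3IP1 (-0.14 ± 0.048, adjusted p = 0.0358), and all 10 log2 fold changes were negative. Of 7 further genes of the BBSome and its transport, TTC8, which is its subunit BBS8, was lower (-0.18 ± 0.038, adjusted p = 0.000532). Of 13 further transition-zone genes 2 were lower, INVS and TMEM237. Of 7 motor genes DYNC2I2, a dynein-2 intermediate chain, was lower (-0.27 ± 0.071, adjusted p = 0.00483). Of 14 genes of ciliary membrane traffic and Hedgehog signaling, 2 were higher, the Hedgehog receptor PTCH1 (0.18 ± 0.05, adjusted p = 0.00809) and the transcription factor GLI1 (0.47 ± 0.17, adjusted p = 0.0413), both targets of that pathway. Of 12 genes of cilium disassembly and suppression, 1 was higher, NEDD9, a scaffold that activates Aurora A (0.41 ± 0.084, adjusted p = 0.00035), and 1 lower, TCHP (-0.18 ± 0.052, adjusted p = 0.00825). Of 17 genes of centriole appendages and cilium assembly, C2CD3 (0.17 ± 0.045, adjusted p = 0.0049) and MARK4 (0.16 ± 0.049, adjusted p = 0.0141) were higher and CEP83 (-0.19 ± 0.067, adjusted p = 0.0374) was lower. Of 11 genes marking motile cilia, 3 were higher, CFAP53 (0.66 ± 0.13, adjusted p = 0.00011), CFAP43 and HYDIN, with 6 of the 11 differing between lines by the interaction. Taken alone, RKO had 6 of 6 tested called higher, DLD1 1 of 5, and the other 4 lines none. HYDIN was highest in RKO LRCs and at 0 in 24 samples. Of the rest, DNAI2 and TEKT1 were at 0 in 57 and 63 of the 64 samples, DNAH5 in 2, and FOXJ1 and TPPP3 reached 45.1 and 106 CPM in non-LRCs of SW948 and HT55. Of 7 regulators of the RFX and FOXJ1 kind, RFX5, which acts on MHC class II genes, was lower (-0.19 ± 0.049, adjusted p = 0.00325). Of 20 cell cycle genes, 12 were lower with a median of -0.29, and their part in the results was not tested.

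The unsorted DLD1 controls show how the same genes moved with time in culture and with the dye. They did not match the sorted DLD1 samples in every level. KIF7, picked after its values were seen, stood at 0.758 CPM per kilobase in sorted DLD1 non-LRCs and 0.916 in LRCs. In the 4 control groups it stood at 4.73 to 6.15. The cause was not tested, and no test compared sorted with control samples. The 4 comparisons share samples, and their differences from each other were not tested. In unlabeled cells, 4 cilium genes of 34 were higher and 3 lower at day 5 than at day 1, with 12.4% of all genes higher and 13.1% lower. In CFSE-labeled cells 9 were higher and 2 lower, with 20.2% of all genes higher and 19.1% lower. This fit had no replicate block, though same-numbered samples deviated together over time in labeled cells. Reads outside genes took 12.2% to 14.8% at day 1 and 5.2% to 7.31% at day 5 with CFSE, and 8.96% to 13.6% and 5.19% to 8.35% without. Of the 20 cell cycle genes, 9 were lower at day 5 without dye and 8 higher with it, and of 9 epithelial genes tested 5 and 6 were higher, with medians of 0.67 and 0.68. The part of these in the result was not tested. IFT57 had the smallest adjusted p of the labeled cells. Its values were 25.6, 25.6, 31.2 and 30.9 CPM at day 1 and 45.8, 49.9, 42.1 and 46.1 CPM at day 5 with CFSE, a log2 fold change of 0.66 ± 0.11 (adjusted p = 0.000442). Without dye it went from 33.4, 33.3, 35.8 and 41.9 CPM to 51.1, 50.8, 46.2 and 42.3 CPM, a log2 fold change of 0.39 ± 0.11 (adjusted p = 0.0191). All day 5 samples were above all day 1 samples in both. IFT52 moved the same way, from 20.1, 19.5, 25.8 and 27 CPM to 34.6, 32.5, 33.7 and 33.7 CPM with CFSE (0.50 ± 0.12, adjusted p = 0.00345). BBS1 fell, from 2.3, 1.74, 1.75 and 2.92 CPM to 0.144, 0.0613, 0.523 and 0.361 CPM with CFSE (-2.95 ± 0.5, adjusted p = 0.000506) and from 1.81, 1.68, 1.99 and 0.899 CPM to 0.275, 0.0652, 0.453 and 0.694 CPM without (-2.06 ± 0.49, adjusted p = 0.0111). These are few reads, and 64.6% of the exon bases of BBS1 are shared with a readthrough gene or ZDHHC24. TCTN3 rose without dye by 0.38 ± 0.12 (adjusted p = 0.029), from 72.3, 74.4, 74.3 and 94.6 CPM to 104, 111, 104 and 92 CPM.

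The library labelled unlabeled day 1 replicate 4 had the highest IFT57 and TCTN3 and the lowest BBS1 of its group, each on the side of the day 5 samples. Without it, 11 cilium genes were called in unlabeled cells, 6 higher and 5 lower, with 42.1% of all genes called. IFT27, at 28.5, 29.5 and 29.1 CPM in the other day 1 samples and 13.7, 14.8, 14.8 and 22.8 CPM at day 5, then fell by 0.88 ± 0.22 on the log2 scale (adjusted p = 0.00433). Leaving out any other unlabeled day 1 library gave 1 gene. Without day 5 replicate 1 the count was 1, and without replicate 2 or replicate 3 it was 2. Of the labeled day 1 samples, replicates 1 and 2 were below 3 and 4 for IFT57, IFT52, TCTN3, BBS2 and B9D1. Without replicate 1 the count over time was 7, without replicate 2 it was 5, and without both, a setting also added then, it was 3.

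**Figure D5:**
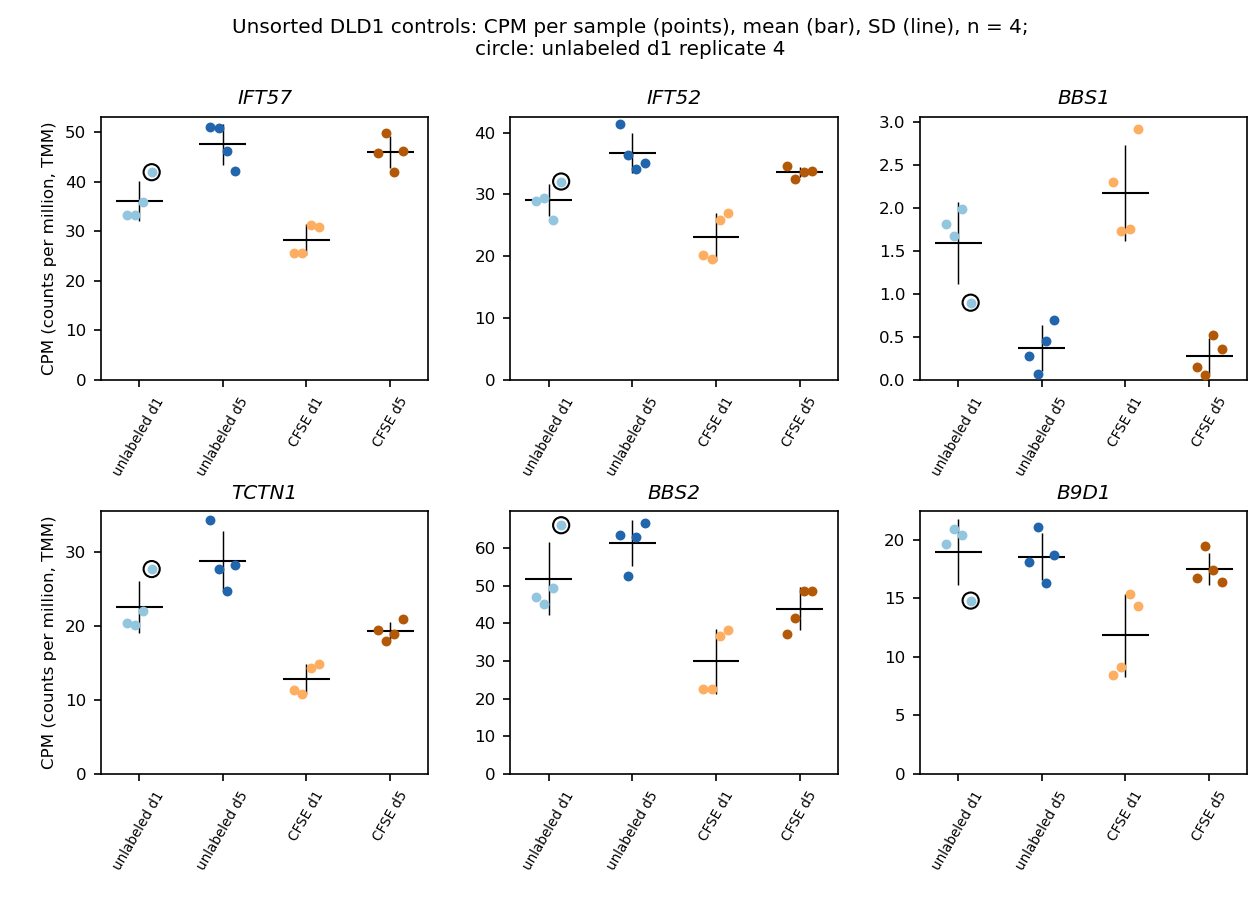
CPM of 6 cilium genes in the 16 DLD1 control samples by dye and day label, with horizontal bars for group means, vertical lines for SDs (n = 4) and a ring around unlabeled day 1 replicate 4. IFT57 was higher at day 5 than at day 1 in both labeled and unlabeled cells, and TCTN1 was lower with CFSE than without it on both days.

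With CFSE at day 1, 9 of 34 cilium genes were lower and 1 higher than without it, against 12% and 9.73% of all genes. TCTN1 stood at 20.4, 20.1, 22.1 and 27.7 CPM without dye and 11.4, 10.8, 14.4 and 14.8 CPM with it, a log2 fold change of -0.79 ± 0.14 (adjusted p = 0.00239). BBS2 stood at 47, 45.2, 49.4 and 66.1 CPM without dye and 22.5, 22.5, 36.6 and 38.3 CPM with it (-0.77 ± 0.18, adjusted p = 0.0075). Neither gene overlapped between groups. BBS9 was also lower (-0.68 ± 0.18, adjusted p = 0.0153), as was B9D1 (-0.65 ± 0.18, adjusted p = 0.0154), at 19.7, 20.9, 20.4 and 14.8 CPM without and 8.44, 9.13, 15.4 and 14.4 CPM with dye. The labeled samples were split, with replicates 1 and 2 well below 3 and 4. Without replicate 1 or replicate 2 of the labeled day 1 cells the count was 2, without both it was 0, and TCTN1 then had -0.61 ± 0.16 (adjusted p = 0.0706). It was 14 without labeled replicate 3 and 13 without labeled replicate 4, and 10 without unlabeled replicate 4.

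At day 5, 1 of 34 genes differed with the dye, when 2.03% of all genes were lower. TCTN1 stood at 34.4, 27.8, 24.7 and 28.3 CPM without dye and 19.5, 18, 19 and 21 CPM with it, a log2 fold change of -0.58 ± 0.14 (adjusted p = 0.029), and no sample overlapped. The count was 0 without CFSE day 5 replicate 1 or replicate 2, and without unlabeled day 5 replicate 1, replicate 3 or replicate 4, and it was 2 without CFSE replicate 4. DESeq2 called 4, a fit of only the 8 samples compared 3, and a fit with no filter on low counts 2. The next genes, TCTN2 (-0.41 ± 0.13, adjusted p = 0.076) and IFT140 (-0.74 ± 0.25, adjusted p = 0.083), did not pass. Of the 34 log2 fold changes, 32 were negative, with a median of -0.23 against -0.03 over all genes tested. The summed level of cell cycle genes was 4870 to 5851 CPM with dye and 2558 to 3660 CPM without, and its part in the result was not tested.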

How the data were processed

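RNA was measured in 64 samples of 16 groups with 4 replicates each, whose line, sorted population, dye, day and replicate number come from their labels. Per the methods of the study, TruSeq libraries were sequenced as 50-bp single-end reads and aligned to hg19 (GRCh37). The processing notes of the submitters name TopHat, HTSeq and DESeq without versions. The annotation and the strand setting of the counting are not given in the sources used here. The deposited values are raw read counts per gene, with no normalization by the authors. No 2 libraries held the same counts. The smallest chi-square per degree of freedom between libraries of a group was 2.19 over genes with at least 20 counts. Reads outside genes took 5.19% to 14.8%.

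A gene entered a comparison if 4 or more of its libraries had 10 counts or more. Libraries were scaled by TMM, and differences were tested across all genes with the quasi-likelihood test of edgeR 4.0.16 (R 4.3.3), two-sided, with Benjamini-Hochberg adjustment and a threshold of 0.05. A prior count of 2 was used only for log2 CPM, from which correlations and differences of same-numbered pairs were taken. It was not applied to the fold changes of the tests. The SE of a log2 fold change was its absolute value divided by the square root of the F statistic of the test. The fit across lines and that of the interaction took the 48 sorted samples with line as a term, the 8 samples of a line were fitted alone, and the 16 controls were fitted together by group. Levels were set per kilobase of the canonical transcript (GENCODE release 44 on GRCh37). At this depth counting error is large for genes under 1 CPM, and intervals were not given for single libraries. The cilium genes and all lists were chosen with earlier results of these data known. Named are genes called across lines or in 2 or more lines, the 3 with the smallest p in the interaction and in each control comparison, the 3 with the widest range per kilobase, and those under the filter, which were EVC2 in every comparison, EVC outside RKO, BBS1 in RKO, BBS5 in RKO and SW48, and DYNC2H1 in HT55 and SW948. Other genes were named after their values were seen.

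Same-numbered replicates deviated together (every r above 0.1) in HT55, SW48, DLD1, HCT15 and over time in CFSE-labeled DLD1, with mean r of 0.348, 0.375, 0.352, 0.478 and 0.243. This pairing comes from the data, since the labels give a number alone. Alternatives were DESeq2 1.42.0, other filters and scalings, the replicate block, 1 fit of all samples, and leaving out each replicate or line.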

Additional observations from a re-analysis of the deposited data

Results flagged for a closer look

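Of 160 groups of 4 libraries tested over the 10 genes given per replicate, 9 held a library set far from the others of its group by Dixon's test at the 95% level, and chance gives about 1 in 20. In the library labelled unlabeled DLD1 day 1 replicate 4, TCTN3 was at 94.6 CPM (others 72.3 to 74.4) and IFT27 at 17.8 CPM (others 28.5 to 29.5). IFT27 was at 22.8 CPM in unlabeled day 5 replicate 4 (others 13.7 to 14.8). TMEM231 was at 38.9 CPM in RKO LRC 4 (others 43.7 to 44.3) and IFT52 at 44.6 CPM in RKO non-LRC 3 (others 37.9 to 38.7). TCTN3 was at 91.2 CPM in HCT15 non-LRC 2 (others 103 to 106), and MKS1 at 18.6 CPM in DLD1 non-LRC 2 (others 20.2 to 20.5). BBS2 was at 76.8 CPM in HT55 non-LRC 2 (others 102 to 107) and at 41.3 CPM in SW48 non-LRC 4 (others 39.6 to 39.7).

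The LRC difference varied between lines, by the interaction test of edgeR, for TCTN3 (adjusted p = 0.00353), TCTN1 (0.00983), IFT27 (0.0153), IFT140 (0.0169), EVC (0.0409) and IFT172 (0.0478). IFT140 was lower in HCT15 LRCs (log2 fold change -0.50) and had 0.18 in DLD1, and IFT172 had -0.38 in HCT15 and 0.27 in HT55, each from a fit of 1 line. Without replicate 1 of every group none of the 6 passed, and without RKO TCTN3 alone did.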

How the results depend on the processing

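Under other settings than leaving out a replicate, 71 counts of called cilium genes equaled the reported count or stayed within 1.5 times it, and 26 did not. A reported 0 that stayed 0 is among the 71, also in HT55, where 0% of all genes were called. For the 9 genes called across lines, 90 such values kept the call, 17 lost it and none changed sign. The cause of the shifts that follow was not tested. For most of these counts, and for those of leaving out 1 replicate, the share of all genes called is not given. A count alone does not tell a change in cilium genes from a change in all genes. In 1 fit of all 48 sorted samples the counts were 1 in HT55, 5 in RKO, 3 in SW48, 2 in DLD1 and 3 in HCT15. Without a filter on low counts they were 1 in SW948, 1 in HCT15, 3 for time in unlabeled cells and 2 for dye at day 5. DESeq2 called 1 in HCT15 and 4 for dye at day 5. Requiring 10 counts or more in each library called 4 for time in unlabeled and 7 in labeled cells, and scaling without TMM called 3 and 5. With only the 8 samples compared, 1 was called for time in unlabeled cells, 3 for dye at day 1 and 3 for dye at day 5. Settings added after the data were seen gave 1 for the interaction without RKO, and, without both CFSE day 1 replicates 1 and 2, 3 for time and 0 for dye at day 1. With the replicate block 5 were called in SW48, 11 in DLD1, 14 in HCT15, 14 for the interaction (in which SW948 and RKO did not pair) and 6 for dye at day 5, where the replicates share a number alone. Across lines the block called 10.

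Leaving out 1 replicate gave 4 to 8 across lines, 0 in HT55 and in SW48, 0 to 2 in SW948, 7 to 10 in RKO, 0 to 5 in DLD1, 0 to 1 in HCT15, 0 to 5 for the interaction, 33 for levels between lines, 1 to 11 for time in unlabeled cells, 5 to 11 in labeled cells, 2 to 14 for dye at day 1 and 0 to 2 for dye at day 5. Depth limits BBS1, B9D2 and EVC outside RKO, which had few reads.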
